A study of Mus musculus with 12 samples.

Results

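Cortical endothelium from mice labelled as endothelial knockouts of Hdac2 and of Ezh2 was compared directly, library against library and across all genes. The members were the 3 libraries titled Hdac2 ECKO and the 3 titled Ezh2 ECKO, 6 of the 12 libraries of the study, and 12577 of the 21638 genes in the table were tested, those whose counts averaged 10 or more across the 12. ECKO stands for an endothelial knockout. The Hdac2 ECKO mice carried Hdac2lox/lox with Cdh5CreERT2 and the Ezh2 ECKO mice carried Ezh2lox/lox with Cdh5CreERT2, a tamoxifen-inducible Cre recombinase driven from the Cdh5 promoter, which is active in endothelium of all organs and not in brain alone. Mice of both genotypes were adults, received 5 doses of tamoxifen at 75 mg/kg, and were used 2 months later. The cells were sorted from brain as CD31 positive and as negative for CD41 and CD45, a gate that keeps endothelium and leaves out platelets and white blood cells. Wild type (WT) mice gave 3 libraries that serve here as the background level, and mice with Ctnnb1lox/lox and Cdh5CreERT2, labelled as a gain of function of beta-catenin (beta-catenin GOF), gave the other 3. Whether WT mice received tamoxifen, whether the libraries came from separate animals, and the strain, sex and exact age of the mice are not given in the sources used here, so the p-values below measure the spread between these libraries, which may in part be technical.

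Hdac2 is a class I histone deacetylase. It works inside corepressor complexes (Sin3, NuRD and CoREST) that remove acetyl groups from histones, and its close relative Hdac1 shares much of this work. Ezh2 is the methyltransferase of Polycomb repressive complex 2, which places methyl groups on lysine 27 of histone H3 and keeps developmental regulators silent. Both enzymes are therefore known as repressors that act on chromatin, one by removing a mark of active genes and the other by adding a mark of silent ones, and the direct comparison asks which genes distinguish the 2 genotypes in the same cell type.

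The targeted genes were read first, as a check of the labels. Hdac2 stood at 82.2, 95 and 112 CPM (counts per 1000000 of the scaled library total) in Hdac2 ECKO, at 114, 140 and 108 in labelled Ezh2 ECKO, and at 163, 122 and 104 in WT. The Hdac2 ECKO values overlapped those of WT (log2 difference -0.42, SE 0.24, edgeR adjusted p = 0.22), and beta-catenin GOF, where Hdac2 is not targeted, stood at 88.6, 92.3 and 108. The log2 difference of Hdac2, Hdac2 ECKO minus labelled Ezh2 ECKO, was -0.32 (SE 0.24, edgeR adjusted p = 0.72). Ezh2 stood at 9.85, 5.19 and 11.7 CPM in labelled Ezh2 ECKO, at 14.5, 7.67 and 6.31 in Hdac2 ECKO, and at 8.88, 2.69 and 8.69 in WT. The mean Ezh2 level was thus no lower in the libraries labelled Ezh2 ECKO (8.92 ± 3.36, SD, n = 3) than in WT (6.75 ± 3.52, SD, n = 3), and its log2 difference between the knockouts was 0.09 (SE 0.46, edgeR adjusted p = 0.97). The Ezh2 level therefore goes against the label, and the libraries are called "labelled Ezh2 ECKO" throughout. Hdac2 ECKO is likewise the name on the label, since the lower mean of Hdac2 there did not pass against WT. A gene's total count includes exons outside the lox sites, so it does not show whether the deleted exons were lost. Ctnnb1, which is targeted in neither genotype, differed by 0.07 (SE 0.29, edgeR adjusted p = 0.96).

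Depth was similar. The Hdac2 ECKO libraries held 24781070 to 26071384 counts and the labelled Ezh2 ECKO libraries 26194646 to 30880870, and a floor of 3 counts lay between 0.0972 and 0.118 CPM. Pearson's r of log2 profiles across genes was 0.94 to 0.97 within a group and 0.91 to 0.97 between the groups, so the groups were about as like as their own replicates. The libraries numbered 2 stood apart in both groups: on the first principal component of all 12 libraries, with 41.1% of the variance, Hdac2 ECKO 2 lay at 6.3 against 63.6 and 46.4 for its replicates, and labelled Ezh2 ECKO 2 at -20.9 against 44.0 and 40.3. The 3 WT libraries lay between -55.5 and -18.1. Every one of the 15 endothelial markers was detected in all 6 libraries. Their summed level was 16964 to 18693 CPM in Hdac2 ECKO and 19592 to 24319 in labelled Ezh2 ECKO. Hdac2 ECKO thus lay below labelled Ezh2 ECKO and below WT (21306 to 26079) without overlap. Ly6c1, the most abundant of these markers, had a log2 difference between the knockouts of -0.60 (edgeR adjusted p = 0.61).

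Of the 12577 genes tested, 3 passed the threshold of an adjusted p under 0.05 between the knockouts, or 0.0239%. Ifi202b, an interferon-inducible protein gene of the Ifi200 family that is known as a brake on the DNA sensor Aim2 and for levels that differ between inbred strains, was at the floor in Hdac2 ECKO and at 12.7 to 20.2 CPM in labelled Ezh2 ECKO. Aldh1a1, a retinaldehyde dehydrogenase that makes retinoic acid, was higher in labelled Ezh2 ECKO by 6.22-fold. Sgce, the imprinted gene of epsilon-sarcoglycan that is expressed from the paternal allele, was higher in Hdac2 ECKO by 4.71-fold. For all 3 genes labelled Ezh2 ECKO passed the threshold against WT and Hdac2 ECKO did not. The Hdac2 ECKO values of Sgce and Aldh1a1 still lay below those of WT without overlap, with log2 differences of -0.44 and -0.51.

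Ifi202b (ENSMUSG00000026535.9, chr1:173962568-173982744, minus strand, GRCm38) had 2, 2 and 4 counts in Hdac2 ECKO and 487, 513 and 354 counts in labelled Ezh2 ECKO. In CPM the latter were 15.8, 20.2 and 12.7, while WT stood at 0.0694, 0 and 0 and beta-catenin GOF at 0, 0 and 0.0581. The groups did not overlap, and the other 3 groups were all near the floor. The pooled ratio of labelled Ezh2 ECKO to Hdac2 ECKO was 173, with a 95% counting interval from 87.5 to 401 that covers counting error only, and the fitted log2 difference was -7.38 (SE 0.80, edgeR adjusted p = 0.0015), a value that depends on the prior count. Ifi202b reached the count minimum through labelled Ezh2 ECKO alone. Genes of the Ifi200 family resemble each other in sequence, and how reads matching several of them were counted is not given in the sources used here.

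Aldh1a1 (ENSMUSG00000053279.8, chr19:20492715-20643465, plus strand) stood at 5.45, 4.44 and 4.44 CPM in Hdac2 ECKO and at 30.9, 32 and 26.3 CPM in labelled Ezh2 ECKO. WT libraries held 5.69, 6.84 and 7.83 CPM, so that the labelled Ezh2 ECKO libraries lay above both. Within beta-catenin GOF the values were 5.39, 8.92 and 19.8 CPM, the last of which lay between the others and labelled Ezh2 ECKO. The log2 difference between the knockouts was -2.64 (SE 0.40, edgeR adjusted p = 0.035).

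Sgce (ENSMUSG00000004631.15, chr6:4674350-4747207, minus strand) stood at 19.6, 21.4 and 21.4 CPM in Hdac2 ECKO and at 2.43, 4.72 and 6.11 CPM in labelled Ezh2 ECKO. WT held 31.4, 28 and 25.1 CPM and beta-catenin GOF 24, 15.7 and 22.4 CPM, so the 3 labelled Ezh2 ECKO libraries were the lowest of the 12. The log2 difference was 2.24 (SE 0.33, edgeR adjusted p = 0.034). Peg10, the imprinted gene that starts next to Sgce in the opposite direction, was under the count minimum, with 2, 0 and 2 counts in labelled Ezh2 ECKO and 36, 4 and 6 in Hdac2 ECKO.

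**Figure D1:**
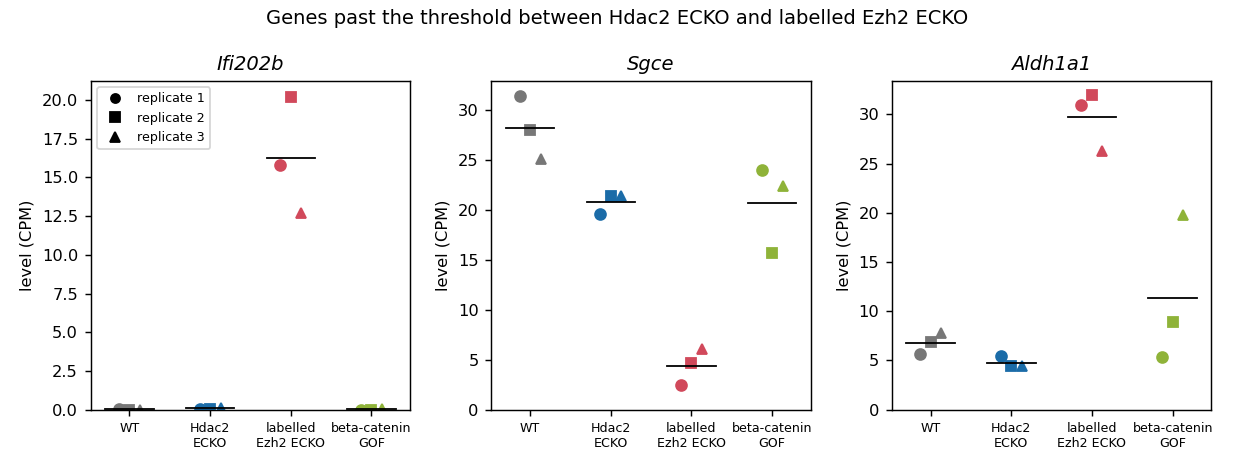
Level of Ifi202b, Sgce and Aldh1a1 in CPM (vertical axis, linear and from 0) in the 4 groups, with 1 point per library, its shape giving the replicate number, and a bar at the group mean. The labelled Ezh2 ECKO libraries sit at 12.7 to 20.2 CPM for Ifi202b, at 2.43 to 6.11 for Sgce and at 26.3 to 32 for Aldh1a1, apart from the Hdac2 ECKO and WT libraries in each panel.

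Each knockout was also set against WT, and since both of those comparisons use the same 3 WT libraries their values are given side by side only. Hdac2 ECKO differed from WT in 1157 genes (9.2% of those tested) and labelled Ezh2 ECKO in 129 (1.03%). Both differences from WT varied with gene length. From the shortest to the longest of 5 equal classes of genes, the median log2 difference went from -0.52 to 0.66 in Hdac2 ECKO. In labelled Ezh2 ECKO it went from -0.21 to 0.43. The part of length in these counts of genes was not tested. For Sgce the log2 difference from WT was -2.67 (SE 0.33, edgeR adjusted p = 0.0045) in labelled Ezh2 ECKO and -0.44 (SE 0.31, edgeR adjusted p = 0.34) in Hdac2 ECKO. For Aldh1a1 it was 2.13 (SE 0.40, edgeR adjusted p = 0.045) in labelled Ezh2 ECKO and -0.51 (SE 0.39, edgeR adjusted p = 0.37) in Hdac2 ECKO. Ifi202b rose from WT in labelled Ezh2 ECKO (edgeR adjusted p = 4.42e-04). Its counts in Hdac2 ECKO and WT were too close to the floor for a fold.

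The calls of Sgce and Aldh1a1 were lost in most fits with 1 library left out, though the log2 differences kept their direction. In these fits the log2 difference ran from -2.74 to -2.58 for Aldh1a1 and from 1.94 to 2.53 for Sgce. Ifi202b remained past the threshold when any 1 of the 6 libraries was left out (edgeR adjusted p from 0.0046 to 0.027). Aldh1a1 passed in none of these 6 fits: its edgeR adjusted p was 0.14, 0.16 and 0.22 without Hdac2 ECKO 1, 2 and 3, and 0.077, 0.073 and 0.072 without labelled Ezh2 ECKO 1, 2 and 3. Sgce passed only without labelled Ezh2 ECKO 3 (0.025): the edgeR adjusted p was 0.051, 0.15 and 0.18 without Hdac2 ECKO 1, 2 and 3, and 0.062 and 0.073 without labelled Ezh2 ECKO 1 and 2. With both libraries numbered 2 left out no gene passed in edgeR, where 754 genes had an unadjusted p under 0.05, and the log2 differences were -6.99 for Ifi202b, 2.27 for Sgce and -2.53 for Aldh1a1. Sgce also missed the threshold after the trend on gene length and GC content was removed (2.14, edgeR adjusted p = 0.1) and in a fit of the 6 libraries alone (2.24, edgeR adjusted p = 0.21). Aldh1a1 missed it when libraries were scaled by library size alone (-2.40, edgeR adjusted p = 0.065).

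Ifi202b and its neighbour Ifi203 lie 0.0199 Mb apart on chromosome 1 and were both higher in labelled Ezh2 ECKO, so the sequences at their start sites are shown, together with the start site of Aldh1a1. The windows run from 250 bases before to 50 bases after a start site and come from RefSeq on GRCm38.p6. RefSeq start sites can differ from the ends of the genes as counted, given above. The window of Ifi202b lies wholly before the counted gene, and the window shown for Aldh1a1 lies within the counted gene. The window shown for Ifi203 has its start site inside the counted gene. They were searched on both strands for TATAAA (the core of a TATA box), CCAAT (the CCAAT box) and the core of an interferon response element (a pair of GAAA repeats set 2 bases apart), and capitals mark the matches. Ifi203 and Aldh1a1 each have a second RefSeq window, which held none of these 3 motifs. The second window of Aldh1a1, chr19:20492333-20492632, lies just before the start of the counted gene. The second window of Ifi203, chr1:173942623-173942922, has its start site at the start of the counted gene.
Ifi202b, chr1:173982795-173983094, minus strand: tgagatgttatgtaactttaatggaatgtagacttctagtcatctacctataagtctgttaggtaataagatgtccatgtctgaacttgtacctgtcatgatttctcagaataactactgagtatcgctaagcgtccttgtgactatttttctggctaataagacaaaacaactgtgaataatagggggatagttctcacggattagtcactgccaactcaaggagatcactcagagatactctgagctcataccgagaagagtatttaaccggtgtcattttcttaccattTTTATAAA
Ifi203, chr1:173942443-173942742, minus strand: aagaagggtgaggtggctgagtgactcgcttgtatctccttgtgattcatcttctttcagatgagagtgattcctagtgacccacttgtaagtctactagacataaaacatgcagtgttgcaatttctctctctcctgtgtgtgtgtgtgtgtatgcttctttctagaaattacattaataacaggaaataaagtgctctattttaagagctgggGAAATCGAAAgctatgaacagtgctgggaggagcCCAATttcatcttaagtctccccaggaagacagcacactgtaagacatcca
Aldh1a1, chr19:20601718-20602017, plus strand: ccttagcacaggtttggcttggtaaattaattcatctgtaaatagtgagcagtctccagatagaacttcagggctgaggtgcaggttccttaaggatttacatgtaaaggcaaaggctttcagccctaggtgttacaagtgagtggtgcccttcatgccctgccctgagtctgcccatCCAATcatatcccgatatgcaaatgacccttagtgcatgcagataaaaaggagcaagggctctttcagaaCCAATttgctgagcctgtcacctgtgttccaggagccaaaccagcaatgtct
The window of Ifi202b held TATAAA on both strands in overlapping letters 44 and 42 bases after the start site, and 5 CG pairs. The window shown for Ifi203 held the interferon response element core 35 bases before its own start site, CCAAT 1 base before it, and 2 CG pairs. Both matches thus lie inside the counted gene. The window of Aldh1a1 held CCAAT 72 and 2 bases before the start site and 1 CG pair. Among 32851 RefSeq windows of the same length, 13.6% held TATAAA, 37.4% held CCAAT and 3.44% held the interferon response element core, and the median window held 7 CG pairs. These matches are letters only and say nothing about binding.

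Below the threshold, 1030 genes had an unadjusted edgeR p under 0.05 between the knockouts (8.19%), 519 of them higher in Hdac2 ECKO (4.13%) and 511 lower (4.06%). In 1660 genes (13.2%) the 3 values of one group lay entirely above the 3 of the other, in 978 with Hdac2 ECKO higher (7.78%) and in 682 with Hdac2 ECKO lower (5.42%). The median log2 difference of all tested genes was 0.02. The genes next in order of p, 12 in each direction among those with no overlap between the groups, are described below by their values, since none passed in edgeR. In DESeq2, which called 98 genes in all (57 higher and 41 lower in Hdac2 ECKO), all 24 passed.

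**Figure D2:**
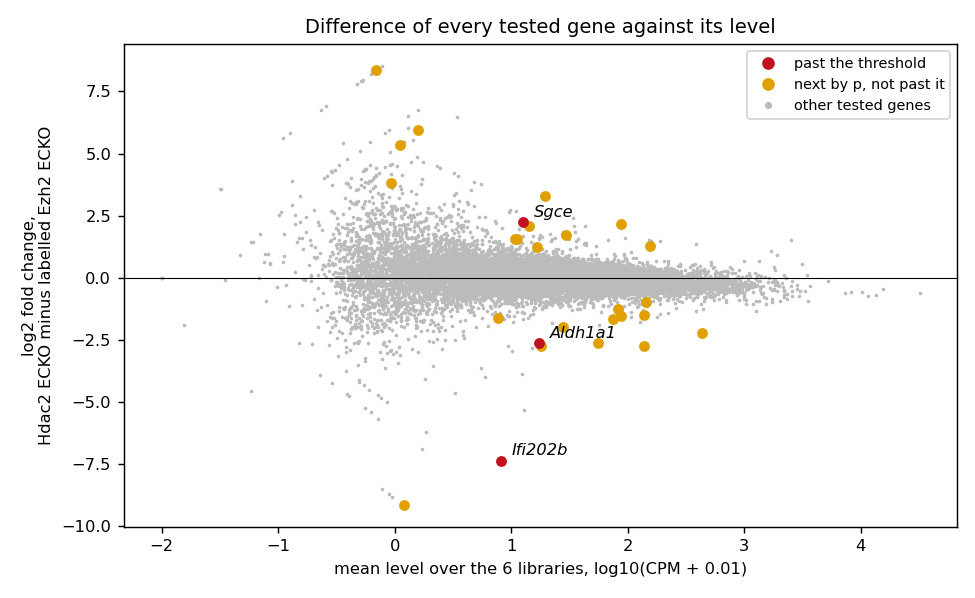
Log2 difference, Hdac2 ECKO minus labelled Ezh2 ECKO (vertical axis), against the mean level over the 6 libraries as log10 of CPM + 0.01 (horizontal axis), with 1 point per tested gene. Red points are the 3 genes past the threshold, Ifi202b at -7.38, Aldh1a1 at -2.64 and Sgce at 2.24, yellow points are the 24 genes next by p, and the spread of the grey points widens towards low levels.

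Of the 12 genes with higher values in Hdac2 ECKO, the first 4 described here had WT levels nearer to labelled Ezh2 ECKO. Cpe, the carboxypeptidase E that trims prohormones, stood at 201, 122 and 108 CPM against 26.3, 35.9 and 34.6, a log2 difference of 2.15 (SE 0.40, edgeR adjusted p = 0.11). Myh11, the myosin heavy chain of smooth muscle, stood at 60.9, 11.9 and 34 CPM against 4.02, 1.42 and 5.46 (log2 difference 3.29, SE 0.70, edgeR adjusted p = 0.19), with Hdac2 ECKO 2 nearest to the other group. Ildr2, an immunoglobulin-like membrane protein, stood at 59.9, 45.8 and 31.3 CPM against 16.8, 8.58 and 16.7 (log2 difference 1.70). Fryl stood at 284, 166 and 210 CPM against 123, 63.2 and 87.5 (log2 difference 1.27).

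For these 4 genes Hdac2 ECKO passed against WT and labelled Ezh2 ECKO did not. Cpe rose from WT by a log2 difference of 1.87, Myh11 by 3.39 and Fryl by 1.53 in Hdac2 ECKO (edgeR adjusted p = 0.032 each), and Ildr2 by 1.16 (edgeR adjusted p = 0.05, just under the threshold before rounding). In labelled Ezh2 ECKO the differences from WT of the 4 genes were -0.29, 0.10, 0.26 and -0.55 in the same order.

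Another group of the 12 had WT levels near Hdac2 ECKO and lower values in labelled Ezh2 ECKO. Prune2 stood at 18.9, 16.1 and 13.3 CPM in Hdac2 ECKO and at 4.99, 5.51 and 6.04 in labelled Ezh2 ECKO, with WT at 13.2, 12.7 and 16.1 (log2 difference between the knockouts 1.55, SE 0.29, edgeR adjusted p = 0.11). Labelled Ezh2 ECKO fell from WT by 1.34 on the log2 scale (edgeR adjusted p = 0.048). Lrp10, a receptor of the low-density lipoprotein receptor family, stood at 16.2, 19.6 and 14.7 CPM against 5.06, 7.32 and 4.6, and Rcan2, a regulator of the phosphatase calcineurin, at 19.4, 25.8 and 24.9 against 11.2, 8.97 and 9.45. Their log2 differences were 1.57 and 1.24, and neither passed against WT in either knockout.

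Another 3 were near the floor in labelled Ezh2 ECKO. Usp2, a deubiquitinase, had 96, 58 and 28 counts in Hdac2 ECKO and 0, 2 and 2 in labelled Ezh2 ECKO, a pooled ratio of 44.6 with a counting interval from 17.1 to 165. It overlaps Gm49380 on the opposite strand, and whether the counting used strand is not given in the sources used here. Sntg2, a syntrophin, had 144, 71 and 43 counts against 4, 0 and 0, a pooled ratio of 63.2 (interval 24.4 to 234). Fam184a had 19, 66 and 34 counts against 0 in all 3, at least 12.5-fold higher in Hdac2 ECKO when set against 3 counts per library. Fam184a reached the count minimum through Hdac2 ECKO alone, the group in which it was high. Adjusted p in edgeR was 0.17 for Usp2 and 0.23 for the other 2. WT stood at 0.625, 1.99 and 1.57 CPM for Usp2, and at 0.0347, 2.09 and 2.28 for Sntg2. For Fam184a, WT was low as well, at 0.208, 0.38 and 0.249 CPM.

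Among the 12 genes with lower values in Hdac2 ECKO, Ifi203 was the nearest to the threshold. It stood at 9.39, 15 and 21.7 CPM in Hdac2 ECKO and at 112, 70.2 and 107 in labelled Ezh2 ECKO, with WT at 10.6, 31.7 and 27.3, a log2 difference of -2.65 (SE 0.44, edgeR adjusted p = 0.066). Labelled Ezh2 ECKO rose from WT by 2.06 on the log2 scale (edgeR adjusted p = 0.046). With a mean count of 50 as the minimum, Ifi203 passed as the 4th gene of the direct comparison.

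Cdkn1a, the cell cycle inhibitor p21, stood at 32.5, 34.6 and 40.1 CPM in Hdac2 ECKO, at 80.8, 177 and 83.7 in labelled Ezh2 ECKO and at 207, 168 and 111 in WT (log2 difference -1.67, SE 0.32, edgeR adjusted p = 0.11). The Hdac2 ECKO libraries were the lowest, and their fall from WT by 2.18 on the log2 scale passed (edgeR adjusted p = 0.032). Pmaip1, which encodes the cell death protein Noxa, stood at 53.7, 11.9 and 42.6 CPM against 171, 366 and 191 (log2 difference -2.75, SE 0.53, edgeR adjusted p = 0.11), with WT at 138, 52.9 and 45.1, the latter pair within the range of Hdac2 ECKO. Anxa1, the anti-inflammatory annexin A1, stood at 41.4, 44.8 and 48.3 CPM against 68, 159 and 162 (log2 difference -1.54, SE 0.34, edgeR adjusted p = 0.21).

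Another 3 of the 12 encode enzymes. Gsta4, a glutathione transferase that clears products of lipid peroxidation, stood at 275, 128 and 55.5 CPM in Hdac2 ECKO against 634, 1081 and 450 in labelled Ezh2 ECKO, with a mean of 698 ± 70.5 in WT (SD, n = 3). Its log2 difference was -2.24 (SE 0.46, edgeR adjusted p = 0.17), and its fall from WT by 2.19 in Hdac2 ECKO passed (edgeR adjusted p = 0.032). Qpct, which forms pyroglutamate at the ends of peptides, stood at 10.8, 9.85 and 12.2 CPM against 39.1, 50.7 and 42.7 (log2 difference -2.01, SE 0.37, edgeR adjusted p = 0.11), and fell from WT by 1.72 in Hdac2 ECKO (edgeR adjusted p = 0.032). Gpx6, a glutathione peroxidase, was at 0 in all 3 Hdac2 ECKO libraries, with counts of 8, 82 and 102 in labelled Ezh2 ECKO, at least 22.7-fold higher in the latter when set against 3 counts per library.

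The other 5 genes with lower values in Hdac2 ECKO were Gdpd3, 1500011B03Rik, Psmg2, Rpl29 and Lyplal1. Gdpd3, a phosphodiesterase of lysophospholipids, stood at 7.46, 3.65 and 3.02 CPM against 19.7, 60 and 14.7, with a WT mean of 1.9 ± 1.27 (SD, n = 3). Labelled Ezh2 ECKO exceeded WT by 4.05 on the log2 scale (edgeR adjusted p = 0.019). Psmg2, a chaperone of proteasome assembly, stood at 104, 85.1 and 99 CPM against 173, 220 and 181, with labelled Ezh2 ECKO above WT by 1.07 (edgeR adjusted p = 0.045). Rpl29, a protein of the large ribosomal subunit, stood at 70.3, 103 and 45 CPM against 182, 304 and 132, and fell from WT by 1.17 in Hdac2 ECKO (edgeR adjusted p = 0.042). The log2 differences between the knockouts were -2.74 for Gdpd3, -1.61 for Lyplal1, -1.50 for Rpl29 and -1.25 for 1500011B03Rik, and Psmg2 was 1.99-fold higher in labelled Ezh2 ECKO, with edgeR adjusted p from 0.17 to 0.23.

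**Figure D3:**
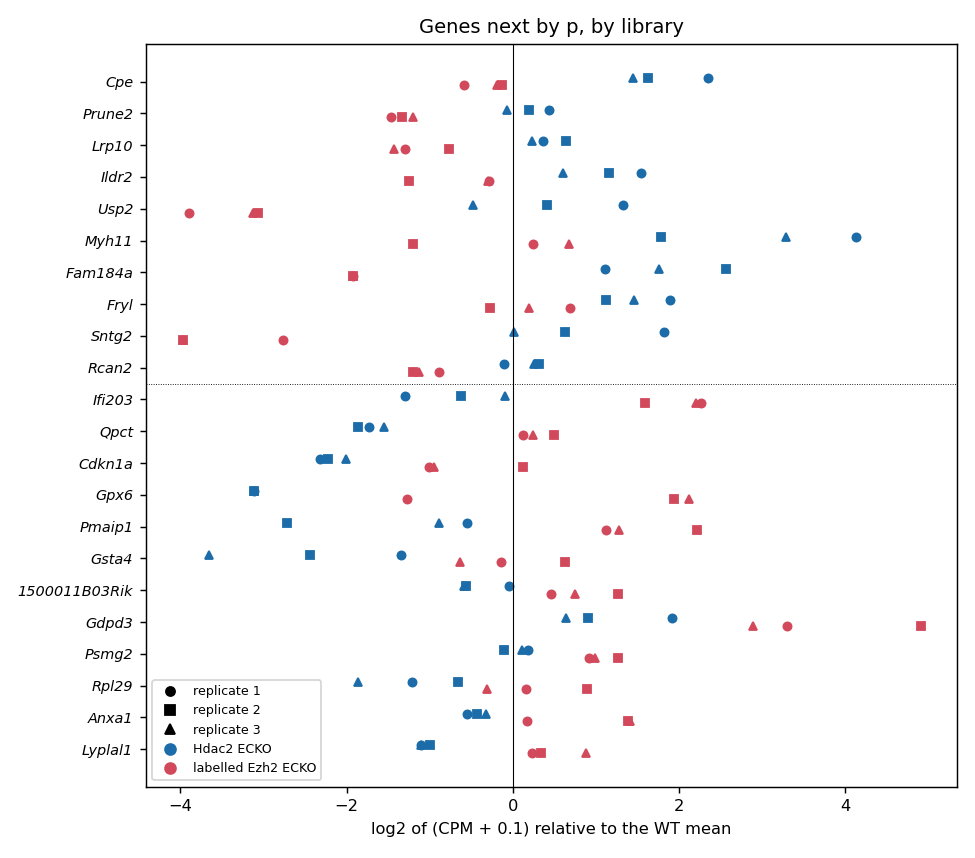
Values of 22 of the genes next by p in the 6 libraries, as log2 of CPM + 0.1 relative to the mean of the WT libraries (horizontal axis; the vertical line is the WT mean), with Hdac2 ECKO in blue, labelled Ezh2 ECKO in red and the replicate number as the shape. Above the dotted line are 10 genes higher in Hdac2 ECKO and below it the 12 lower ones; for Prune2 the blue points lie around the WT mean and the red points below it, while for Cdkn1a the blue points lie farthest below it.

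The comparisons with WT moved with single libraries. Of the 24 next genes, 10 passed against WT in Hdac2 ECKO. Without Hdac2 ECKO 1 only 1 of those 10, Gsta4, stayed past the threshold, and without Hdac2 ECKO 3 none did (edgeR adjusted p from 0.13 to 0.16), whereas with both libraries numbered 2 left out all 10 did. Ildr2 was also lost without Hdac2 ECKO 2 (edgeR adjusted p = 0.06), labelled Ezh2 ECKO 1 (0.055) or labelled Ezh2 ECKO 3 (0.056), with median-ratio scaling (0.055) and with the length and GC trend removed (0.14). Rpl29 was lost with that trend removed (edgeR adjusted p = 0.11) and when libraries were scaled by library size alone (0.055). In labelled Ezh2 ECKO, 7 genes passed against WT, counting Ifi202b, Sgce and Aldh1a1 with Ifi203, Prune2, Gdpd3 and Psmg2. Of these 7, only Ifi202b, Sgce and Gdpd3 passed without labelled Ezh2 ECKO 1, without labelled Ezh2 ECKO 3 or without Hdac2 ECKO 3, and the largest edgeR adjusted p of the 7 in those fits was 0.16, 0.13 and 0.07. Scaled by library size alone, Prune2 (edgeR adjusted p = 0.053) and Ifi203 (0.051) also missed the threshold.

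No gene of either targeted complex passed between the knockouts in edgeR. Of 12 tested genes of Polycomb repressive complex 2 and its demethylases, 9 were higher and 3 lower in Hdac2 ECKO, with a median log2 difference of 0.11, and 1 had an unadjusted p under 0.05, where 8.19% of all tested genes did. The core subunits Eed (0.06), Suz12 (0.21) and the second methyltransferase Ezh1 (0.26) lay close to the median of all genes, 0.02. Lcor, whose locus encodes a cofactor of the complex, had the smallest p of the list, with 29.9, 21.9 and 20 CPM against 14, 7.48 and 15.2. Of 29 class I deacetylases and corepressor subunits, 14 were higher and 15 lower (median -0.01), and 1 had an unadjusted p under 0.05. Hdac1, the partner of Hdac2, differed by -0.12, Hdac3 by 0.04 and Hdac8 by -0.80. Sin3a, the scaffold of the Sin3 complex, stood at 31, 30.5 and 37.3 CPM in Hdac2 ECKO and at 16.7, 13.4 and 17.9 in labelled Ezh2 ECKO (log2 difference 1.04, SE 0.27, edgeR adjusted p = 0.29), and was the 1 gene of these complexes that passed in DESeq2. Of 20 genes of Polycomb repressive complex 1, 10 were higher and 10 lower, with a median of -0.04 and 5 at an unadjusted p under 0.05, against the same 8.19%.

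Developmental regulators that Polycomb is known to silence were mostly under the count minimum. Of 60 such genes in the table, 14 reached the count minimum, 3 of them (Tbx15, Meis1 and Foxd1) through Hdac2 ECKO alone, so no direction is read from the 14. In the fit without a minimum, 55 were included, 29 with a higher and 21 with a lower value in Hdac2 ECKO, and their median log2 difference was 0.05, as for all genes of that fit. Of the 14, none passed in edgeR, 2 had an unadjusted p under 0.05, and 1, Tbx2, passed in DESeq2. Tbx2 stood at 5.72, 0.751 and 1.98 CPM in Hdac2 ECKO and at 0.162, 0 and 0 in labelled Ezh2 ECKO, with a WT mean of 0.645 CPM (edgeR adjusted p = 0.32). Gata6 stood at 0, 1.37 and 2.5 CPM against 0.0972, 0 and 0.108, and Foxd1 at 3.26, 0 and 0.832 against 0.259, 0.157 and 0.0718. The labelled Ezh2 ECKO libraries were thus at or near the floor for these 3 genes, but they were not alone in this. WT stood at 0.0694, 0.19 and 0 CPM for Foxd1. For Gata6, beta-catenin GOF stood at 0, 0 and 0.232 CPM and WT at 0.972, 1.08 and 1.71.

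Interferon and antigen presentation genes were examined beside Ifi202b. In the Ifi200 family, 9 of the 13 genes in the table were tested, 4 higher and 5 lower in Hdac2 ECKO, and 1 passed, Ifi202b. Their median log2 difference was -1.01, and -0.17 without Ifi202b. In the fit without a minimum, 6 of the 13 were higher and 7 lower (median -0.04). Ifi203 (-2.65), Ifi211 (-2.43) and Ifi204 (-1.39) had lower values in Hdac2 ECKO, while Ifi213 (2.50), Ifi208 (1.33) and Aim2 (1.03) had higher ones. Among 38 interferon-stimulated genes and interferon-inducible GTPases outside that family, 23 were higher and 15 lower, with a median of 0.18, and none passed in edgeR or DESeq2 (1 with an unadjusted p under 0.05). Ifitm2 stood at 738, 817 and 646 CPM against 946, 2069 and 1053 (log2 difference -0.89, edgeR adjusted p = 0.54). The list's median against WT was -1.35 in Hdac2 ECKO and -1.24 in labelled Ezh2 ECKO.

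The genes around the other 2 calls were read from lists as well. Of 14 tested genes of retinoic acid metabolism and signalling, 8 were higher and 6 lower in Hdac2 ECKO (median 0.15), and only Aldh1a1 passed. Aldh1a3, a second retinaldehyde dehydrogenase, stood at 5.3, 4.24 and 9.05 CPM against 10, 10.7 and 13.8, a difference in the direction of Aldh1a1 that did not pass (-0.89, edgeR adjusted p = 0.61). Aldh1a7, a close paralog next to Aldh1a1 on chromosome 19, stood at 0.0757, 0.522 and 0.451 CPM against 0.389, 2.28 and 5.82. Of 19 tested imprinted genes, 10 were higher and 9 lower (median 0.05), and only Sgce passed. Ppp1r9a, imprinted in the same cluster as Sgce, stood at 4.01, 0.979 and 0.797 CPM against 0.648, 0.0787 and 0.575 (log2 difference 2.14, edgeR adjusted p = 0.62), and Asb4 of that cluster differed by 0.05.

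Programmes of the brain endothelium itself lay near the median of all genes. Among 44 blood-brain barrier genes, 25 were higher and 19 lower in Hdac2 ECKO (median 0.10), among 28 genes that respond to beta-catenin 23 were higher and 5 lower (0.16), among 20 arterial genes 15 were higher and 5 lower (0.16), and among 38 angiogenic and tip cell genes 22 were higher and 16 lower (0.07). None of these genes passed in edgeR. An unadjusted p under 0.05 was reached by 3 barrier, 0 beta-catenin, 4 arterial and 5 angiogenic genes, where 8.19% of all tested genes did, and DESeq2 called 1 arterial and 1 angiogenic gene (Stmn2 and Ramp3, both lower in Hdac2 ECKO). Venous genes had a median of 0.40, with 15 of 18 higher in Hdac2 ECKO, 2 of them at an unadjusted p under 0.05 and none past the threshold in edgeR or DESeq2. Among them were Tshz2, at 113, 118 and 69.9 CPM against 59.2, 50.3 and 45.3 (edgeR adjusted p = 0.31), and Vwf, the von Willebrand factor, at 134, 136 and 89.8 against 89.4, 60.4 and 68.2 (edgeR adjusted p = 0.65). Slco2b1, a transporter of the barrier, stood at 144, 82 and 134 CPM against 74.1, 56.2 and 80.8 (edgeR adjusted p = 0.5). Cav1, the coat protein of caveolae, stood at 426, 547 and 587 CPM against 702, 713 and 1042 (edgeR adjusted p = 0.61). Ramp3, a partner of the adrenomedullin receptor, stood at 2.23, 2.55 and 2.08 CPM against 6.48, 43 and 4.1 (log2 difference -2.96, edgeR adjusted p = 0.24), with labelled Ezh2 ECKO 2 far above its replicates. The arterial gene Gkn3 stood at 494, 560 and 626 CPM against 303, 143 and 205, a gap without overlap that did not pass (edgeR adjusted p = 0.55).

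**Figure D4:**
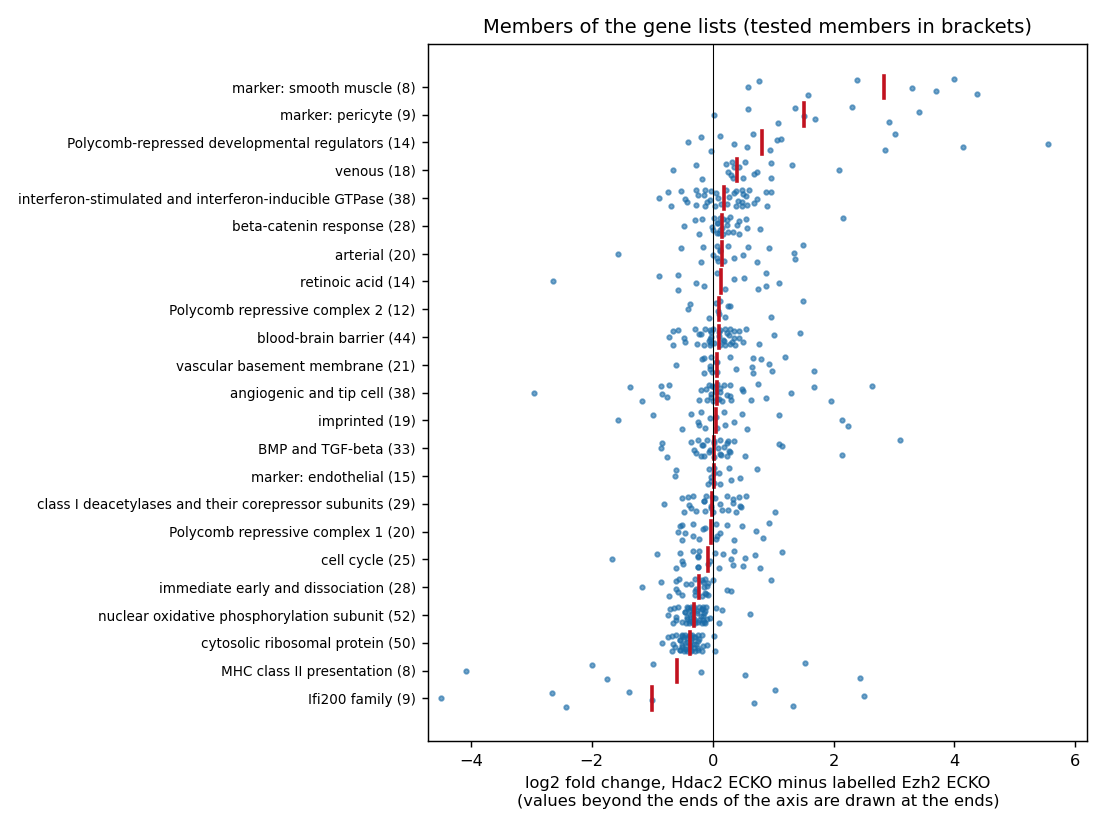
Log2 difference, Hdac2 ECKO minus labelled Ezh2 ECKO (horizontal axis), of every tested member of the gene lists (blue points, 1 per gene, spread vertically only for legibility), with a red bar at each list's median and the number of tested members in brackets. The medians run from -1.01 for the Ifi200 family to 2.84 for smooth muscle markers, and Ifi202b, at -7.38, is drawn at the left end of the axis. Both of these lists hold genes that reached the count minimum through 1 group alone, and without them the medians were -0.17 and 1.98.

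Ribosomal and respiratory chain genes had slightly lower values in Hdac2 ECKO almost throughout. Of 50 cytosolic ribosomal protein genes, 48 were lower (median log2 difference -0.38), and of 52 nuclear genes of oxidative phosphorylation 48 were lower (median -0.31), against 6116 of all 12577 genes. None passed in edgeR or DESeq2, and 4 ribosomal and 3 oxidative phosphorylation genes had an unadjusted p under 0.05. The list does not hold Rpl29, described above, which had a log2 difference of -1.50, beyond the lowest of the list (-0.84), and passed in DESeq2. Rpl10 stood at 291, 238 and 268 CPM in Hdac2 ECKO and at 428, 652 and 352 in labelled Ezh2 ECKO (log2 difference -0.84, edgeR adjusted p = 0.52). These genes are short, with a median annotated length of 1924 and 1522 bases against 4429 over all tested genes, and the difference between the knockouts followed length: its median was -0.32, -0.09, 0.05, 0.11 and 0.19 across 5 equal classes of genes from the shortest to the longest. Spearman's rho across genes was 0.30 with length and 0.01 with GC content. After the trend on length and GC content was removed from every library the medians of both lists were -0.12 and -0.02. When scaled by library size alone, they were -0.13 and -0.06 beside a median of 0.24 for all genes.

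The trend on length was a property of libraries as much as of groups. Spearman's rho between a library's deviation from the mean of all 12 libraries and gene length was 0.40, 0.22 and 0.43 in Hdac2 ECKO and 0.29, -0.35 and 0.37 in labelled Ezh2 ECKO, and lay between -0.31 and -0.25 in WT. Labelled Ezh2 ECKO 2 was therefore like WT in this respect and its 2 replicates were like Hdac2 ECKO. Immediate early and dissociation genes, which are induced when tissue is taken apart, had lower values in Hdac2 ECKO in 25 of 28 cases. Their median was -0.23 beside 0.02 for all genes, and 0.02 beside 0.24 when scaled by library size alone. With the length and GC trend removed it was -0.17 beside 0.00. Of these genes, 0 were past the threshold in edgeR and DESeq2 and 0 had an unadjusted p under 0.05. Ier2 stood at 211, 185 and 171 CPM against 221, 600 and 202, and Atf3 at 97.1, 59.1 and 117 against 122, 198 and 95.6, both with the highest value in labelled Ezh2 ECKO 2.

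Markers of the cells that wrap brain vessels had higher values in Hdac2 ECKO. Of 9 tested pericyte markers all 9 were higher, 6 of them without overlap between the groups, where 7.78% of all tested genes were higher without overlap. Of 8 tested smooth muscle markers, Myocd and Lmod1 reached the count minimum through Hdac2 ECKO alone, and the other 6 were all higher, 5 of them without overlap. In the fit without a minimum, all 10 markers of each list had higher values in Hdac2 ECKO. With the minimum, none passed in edgeR. An unadjusted p under 0.05 was reached by 6 of the 9 pericyte markers and 5 of those 6 smooth muscle markers, where 4.13% of all tested genes were higher at that p, and DESeq2 called 4 of them, Pdgfrb, Rgs5, Acta2 and Myh11. The summed pericyte markers stood at 161, 86.7 and 100 CPM in Hdac2 ECKO and at 41.8, 46 and 39.4 in labelled Ezh2 ECKO, with WT between 37.5 and 61.9 and beta-catenin GOF at 178, 88.9 and 95.7. The summed smooth muscle markers stood at 322, 133 and 274 CPM against 85.8, 87.8 and 101, with WT between 90 and 137 and beta-catenin GOF at 353, 111 and 91. The pericyte sum was thus as high in beta-catenin GOF as in Hdac2 ECKO. The 2 knockouts did not overlap in either sum, and labelled Ezh2 ECKO lay within the range of WT for pericytes and overlapped its low end for smooth muscle.

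The single mural genes given here had the same order without overlap, but not every marker did. Kcnj8 (log2 difference 0.02), Ndufa4l2 (0.58), Abcc9 (1.51) and Mylk (0.59) overlapped between the groups. Pdgfrb, the receptor that recruits pericytes, stood at 10.5, 2.68 and 5.13 CPM in Hdac2 ECKO against 0.454, 0.236 and 1.01 (log2 difference 3.42, SE 0.88, edgeR adjusted p = 0.29). Rgs5, a regulator of G protein signalling abundant in pericytes, stood at 86.5, 42.7 and 52 CPM against 25.9, 24.2 and 20 (log2 difference 1.37, SE 0.33, edgeR adjusted p = 0.24). Acta2, the actin of smooth muscle, stood at 77.6, 23.9 and 70.5 CPM against 6.61, 17.9 and 8.26 (log2 difference 2.39, SE 0.60, edgeR adjusted p = 0.28). Summed pericyte and smooth muscle markers reached 161 and 322 CPM in Hdac2 ECKO, where the summed endothelial markers were at least 16964 CPM. Much of that endothelial sum was Ly6c1, at 7182 to 8642 CPM. Single genes came closer. In Hdac2 ECKO 1, Rgs5 stood above Tie1 (56.2 CPM) and Eng (63.4 CPM) and below every other endothelial marker. Myh11, a smooth muscle marker, belongs to the 12 genes with higher values in Hdac2 ECKO above, and the part of mural cells in that difference was not tested. In bulk samples, more cells of a type and more RNA per cell cannot be told apart.

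**Figure D5:**
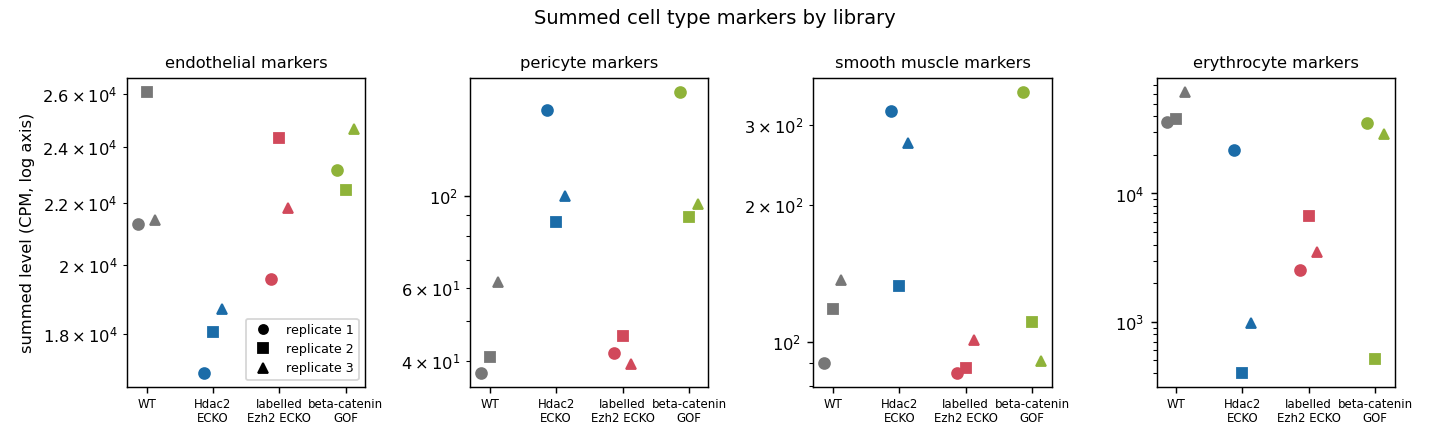
Summed level of the endothelial, pericyte, smooth muscle and erythrocyte markers in CPM (vertical axes, log scale, each with its own range) in the 4 groups, with 1 point per library and the replicate number as the shape. Pericyte and smooth muscle markers are higher in the 3 Hdac2 ECKO libraries than in the 3 labelled Ezh2 ECKO libraries, and Hdac2 ECKO 1 has 21676 CPM of erythrocyte markers against 401 in the lowest library of its group.

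Markers of other cell types varied between libraries of the same group. Erythrocyte markers stood at 401 to 21676 CPM in Hdac2 ECKO, where library 1 was the high one, and at 2519 to 6664 in labelled Ezh2 ECKO, both below the 36133 to 61380 of WT. Leukocyte markers reached 151 CPM in labelled Ezh2 ECKO 2, where S100a8 stood at 79.3 and S100a9 at 69.4 CPM, against 0.389 CPM in the lowest library of that group, and Cd53 was at 0 in all 6. Microglial and macrophage markers stood at 40.3 to 63.2 CPM in Hdac2 ECKO and 53.1 to 93.3 in labelled Ezh2 ECKO. Ttr, a choroid plexus gene, stood at 0.909, 110 and 27.7 CPM against 88.2, 182 and 22.7. Astrocyte markers stood at 57.9 to 89.5 CPM against 57.2 to 92.3, oligodendrocyte markers at 381 to 440 against 381 to 530, and neuronal markers at 2.28 to 6.97 against 3.34 to 10, so these groups overlapped. Platelet markers stood at 5.68 to 47.4 CPM against 11.3 to 51.9 and fibroblast markers at 3.62 to 6.7 against 5.57 to 15.5. Olig1, Olig2 and Foxj1, which define oligodendrocyte lineage and ependyma, were at 0 in all 6. The part of these cells in the differences above was not tested.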

How the data were processed

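RNA from sorted mouse cortical endothelial cells was sequenced as read pairs after full-length cDNA amplification (SMART-Seq v4 PLUS, per the labels' protocols). The authors deposited a table titled as normalized whose values are whole-number counts per gene and library: totals differed between libraries, and 79.5% to 84.0% of values from 10 to 50 were even, which fits a count of both mates. The submitters' processing notes name FastQC, cutadapt, STAR, featureCounts, DESeq2 and mm10, without versions. Strand use and treatment of multiply matching reads are not given in the sources used here. Gene lengths and coordinates are as deposited, per the file headers. 99.1% of genes lay at a GENCODE M21 position, and coordinates are given from 1 on GRCm38. Symbols stored as dates (26) were restored by position.

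Groups and replicate numbers came from the sample titles. The main test was the quasi-likelihood F test of edgeR 4.0.16 (R 4.3.3) with TMM scaling, 1 fit over all 12 libraries without a block, on genes with a mean count of 10 or more, with Benjamini-Hochberg adjustment and a threshold of 0.05. SE was derived from F. Levels are CPM of the TMM-scaled total. Alternatives were median-ratio and library-size scaling, removal of the trend on length and GC content, no minimum and a minimum of 50, DESeq2 1.42.0, limma 3.58.1 with sample quality weights, a fit of 6 libraries, the replicate number as a block, and leaving out libraries. Leaving out both libraries numbered 2 was chosen after seeing the data. Deviations of same-numbered libraries from their group means correlated at 0.19, 0.43 and 0.13, over the 0.1 at which the numbers were taken to pair libraries. Libraries 1 and 3 correlated as much across numbers (0.21 and 0.12), so the numbers set apart only the libraries numbered 2. The check of replicates found every pair of a group to differ by far more than sampling noise (chi-square per degree of freedom at least 67.4).

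Genes named are the targeted genes, all genes past the threshold, the 12 of smallest p in each direction among those not past it whose groups did not overlap, and up to 3 members of smallest p per list. Neighbours and other list members are given as added description, chosen after their values were seen. The count minimum was reached through Hdac2 ECKO alone by 152 tested genes and through labelled Ezh2 ECKO alone by 111; beside those named in the results, they include Phf19, Bub1, Col4a5 and Tgfb3 of the lists, each with a mean under 10 over the other 9 libraries. Of the genes the rule selects, 2 are not reported here. Members and lists were chosen with earlier results of these data known. On simulated counts of 12577 genes for this comparison, edgeR recovered 12% of genes changed 2-fold and 67% of genes changed 4-fold, and 5.95% of its calls were unchanged genes. DESeq2 recovered 27% and 74%, with 22.9% of calls unchanged. Sex-linked genes that would show the sex of a mouse were not analysed here.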

Additional observations from a re-analysis of the deposited data

Results flagged for a closer look

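The difference of each knockout from WT was not the same for 3 genes, by the edgeR test of the difference itself, which is the direct comparison of Hdac2 ECKO with labelled Ezh2 ECKO. The log2 difference was -7.38 for Ifi202b, -2.64 for Aldh1a1 and 2.24 for Sgce (edgeR adjusted p = 0.0015, 0.035 and 0.034, with 3 libraries per group and no overlap of values). In each case the 3 labelled Ezh2 ECKO libraries were on the far side of both Hdac2 ECKO and WT. Groups of 3 are too small for the test of single outlying libraries.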

How the results depend on the processing

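The number of genes past the threshold, 3 in the reported fit, depended on the minimum count and on the test more than on the scaling. Without the minimum count 199 genes passed (103 higher and 96 lower in Hdac2 ECKO, 1 of them with a mean count under 10), in DESeq2 98 passed (57 higher, 41 lower), and with sample quality weights 11 passed (2 higher, 9 lower). All 3 reported genes were among the calls of each of these fits, and the cause of the larger counts was not tested. Median-ratio scaling gave 3 genes, library size alone 2, removal of the length and GC trend 2, a minimum of 50 gave 4, and the 6 libraries alone 2. With the replicate block 3 genes passed, and with the block and the length and GC trend removed 2, so the pairing moved no count by over 1.5 times, and the 3 genes with the block were the same genes. Leaving out 1 library gave 1 to 3 genes, and leaving out both libraries numbered 2 gave 0 in edgeR (754 at an unadjusted p under 0.05), where fewer libraries enter the fit.

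Library size alone moved the median of all genes from 0.02 to 0.24. Ezh2 changed sign with sample quality weights (-0.41) and with both libraries numbered 2 left out (-0.05), and ranged from -0.35 to 0.31 when 1 library was left out. Ctnnb1 turned to -0.04 with the length and GC trend removed, with and without the replicate block, and ranged from -0.14 to 0.22 over the libraries left out. Ctss, a protease of antigen presentation, ranged from -9.67 to 0.91, the latter without labelled Ezh2 ECKO 2. Of 1415 alternative values of the 84 genes tested between the knockouts, 1321 kept direction and side of the threshold, 66 came to pass it, 18 ceased to pass it and 10 changed sign. Of 270 values of named genes against WT, 42 ceased to pass. Of 544 list medians 109 moved by more than the spread of the Hdac2 ECKO libraries.

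Depth limited genes near 3 counts, about 0.1 CPM. With 3 libraries per group the test found few 2-fold changes in simulated counts, so genes that did not pass are not shown to be alike. Strand, multiply matching reads and the deleted exons could not be resolved from gene counts.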

Other observations

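Positions of the named genes were read on the chromosomes, in windows of 5 Mb on each side chosen after the values were seen. Around Aldh1a1, 27.8% of 36 other tested genes had no overlap between the knockouts, around Sgce 29.2% of 24, around Ifi202b 15.5% of 71, around Ezh2 17.4% of 46 and around Hdac2 16.1% of 31, where all tested genes gave 13.2%. None of these neighbours passed in edgeR, and 15 of those around Ifi202b, 8 around Aldh1a1, 4 around Sgce, 4 around Ezh2 and 5 around Hdac2 had an unadjusted p under 0.05, where 8.19% of all tested genes did. Aldh1a1 and Anxa1 lie 0.102 Mb apart on chromosome 19 and were both higher in labelled Ezh2 ECKO. Prune2, 3.27 Mb from Aldh1a1, was higher in Hdac2 ECKO.

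Growth and matrix genes gave single differences below the threshold. Of 33 genes of BMP and TGF-beta signalling, 19 were higher and 14 lower in Hdac2 ECKO (median 0.03), with 5 at an unadjusted p under 0.05 (8.19% over all tested genes) and none past the threshold in edgeR or DESeq2. Bmpr1a, a BMP receptor, stood at 12, 9.07 and 8.56 CPM in Hdac2 ECKO against 3.99, 4.49 and 4.85 (edgeR adjusted p = 0.56), while Smad6, an inhibitor of that pathway, stood at 14.6, 16.8 and 16.1 against 30.4, 23.1 and 27.1 (edgeR adjusted p = 0.59). Of 25 cell cycle genes, 11 were higher and 14 lower (median -0.07), with Ccna2, cyclin A2, at 37.2, 31.8 and 40.2 CPM against 25.1, 18.4 and 23.7 (edgeR adjusted p = 0.54). Of 21 vascular basement membrane genes, 13 were higher and 8 lower (median 0.07), with Lama4, a laminin chain, at 43.6, 40.4 and 32.9 CPM against 26.2, 23.4 and 25.1 (edgeR adjusted p = 0.55). Genes of MHC class II presentation were scarce, with 8 of 11 tested and a median of -0.60, and Cd74, the invariant chain, stood at 0.227, 0.718 and 0.485 CPM against 2.59, 0.394 and 2.8, below the WT mean of 25.2 in all 6 libraries.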
